A study of Homo sapiens with 6 samples.

Results

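The receptors through which cells sense interleukin-17 (IL-17) cytokines, and the adaptor that carries their signal, were examined in a lymphoma cell line exposed to the ligand IL-17A. The set held 6 genes, chosen for their function: the receptor subunits IL17RA, IL17RB, IL17RC, IL17RD and IL17RE, and TRAF3IP2, which encodes the adaptor Act1. Every probe whose RefSeq accession belonged to these genes was taken, which gave 9 of the 34127 probes and 6 of the 19740 named genes on the array. IL17RA was measured by 3 probes, TRAF3IP2 by 2 and each other gene by 1. The cells were SU-DHL-2, an established human line of diffuse large B-cell lymphoma (DLBCL), grown in RPMI 1640 medium with fetal bovine serum. In the treated group, 3 samples received IL-17A at 200 pg/ml for 72 h, and in the control group 3 samples were cultured without IL-17A. No other treatment is described for either group, and a single cell line was used, so the values describe SU-DHL-2 and not DLBCL in general. Each sample was hybridized as Cy3-labeled cRNA to 1 Agilent Whole Human Genome array of the 1-colour type. The sources describe 3 cultured samples in each group but not whether these were independent experiments, so p-values measure the spread between these samples, which may be technical.

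IL-17 receptors are single-pass membrane proteins that work as pairs. IL17RA is the shared subunit, which joins IL17RC to bind IL-17A and IL-17F, IL17RB to bind IL-25, and IL17RE to bind IL-17C, while IL17RD is a more distant member described as a modulator of receptor signaling. The receptors and Act1 share a domain called SEFIR, through which Act1 docks onto the receptor. Act1 then recruits TRAF proteins, which leads to NF-κB and MAP kinase activation and, in epithelial cells and fibroblasts, to the induction of chemokines, antimicrobial peptides and stabilized mRNAs. The comparison asked whether the RNA of the receptors and of Act1 differed between cells kept with the ligand and cells kept without it.

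RNA of all 6 genes was detected in both groups. The 9 probes occupied 18 spots on each array, because the TRAF3IP2 probe A_23_P110879 was spotted 10 times, and all 108 spots on the 6 arrays were well above background with none saturated. Each of the 9 probes was detected on all 6 arrays, as were 22251 of the 34127 probes on the array. These made up 92.9% of the 23945 probes that entered the tests, which had been kept for detection on at least 3 arrays. By the same flags, 7 of 8 T and NK cell markers and 4 of 9 mesenchymal and endothelial markers were also detected on all 6 arrays. The faintest spot was that of IL17RC in IL-17A replicate 2, whose median brightness was 2.56 times its local background. The probe A_33_P3224809 of IL17RA reached 42.7 to 49.0 times its local background. Brightness depends on the probe as well as on the amount of RNA, so the genes could not be ordered by abundance.

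The differences of the 9 probes were set beside those of all tested probes, and counts over 9 probes do not set the receptors apart from the array. At a limma p under 0.05 after Benjamini-Hochberg adjustment across every tested probe, 1 of the 9 probes was called, whereas 7.59% of all tested probes were. None of the 9 probes differed by 1.5-fold or more with an unadjusted p under 0.05, against 2.18% of all tested probes. The groups did not overlap for 3 of the 9 probes, against 38.9% of all tested probes. With IL-17A, 5 probes had a higher mean and 4 a lower one. The median size of the log2 fold change was 0.08 over the 9 probes and 0.12 over all tested probes. The 95% intervals of all 9 probes lay within a 1.5-fold change in either direction, as did 80.8% of all tested probes. Log2 fold changes are given as IL-17A minus control throughout.

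**Figure D1:**
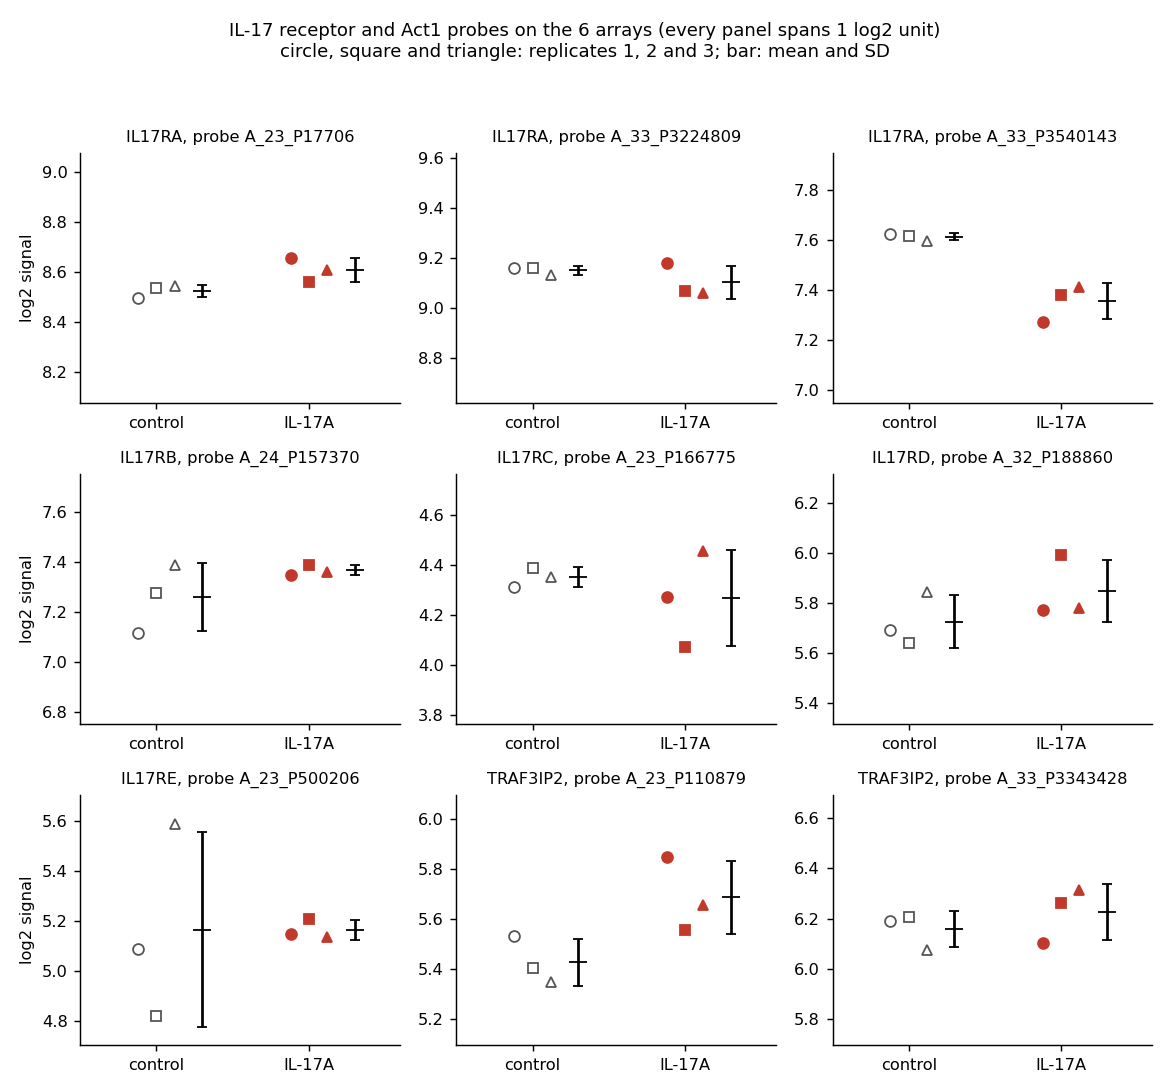
Normalized log2 signal of the 9 probes (vertical axis, each panel spanning 1 log2 unit) on the 3 control arrays (open symbols) and the 3 IL-17A arrays (filled symbols), with circle, square and triangle for replicates 1, 2 and 3 and a bar for the mean and SD. The groups were apart for IL17RA A_23_P17706, IL17RA A_33_P3540143 and TRAF3IP2 A_23_P110879, and the widest spread was that of the IL17RE controls, from 4.82 to 5.59.

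IL17RA, the subunit shared by the receptors of IL-17A, IL-17C, IL-17F and IL-25, was measured by 3 probes, of which 2 had a lower mean with IL-17A and 1 a higher one. The brightest, A_33_P3224809, had log2 signals of 9.18, 9.07 and 9.06 in IL-17A replicates 1, 2 and 3 and of 9.16, 9.16 and 9.13 in the controls. The groups overlapped, since IL-17A replicate 1 was the highest of the 6 arrays while IL-17A replicates 2 and 3 were the lowest. Its log2 fold change was -0.05 ± 0.05 (SE, n = 3 per group, limma adjusted p = 0.525). Thus the brightest IL17RA probe gave no detectable change, with a 95% interval from -0.16 to 0.07.

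The probe A_23_P17706 had log2 signals of 8.66, 8.56 and 8.61 on the IL-17A arrays and of 8.50, 8.53 and 8.54 in the controls. Here every IL-17A array lay above every control array, by a narrow margin. The log2 fold change was 0.08 ± 0.04 (SE, limma adjusted p = 0.231), which did not pass the test.

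The third IL17RA probe, A_33_P3540143, was the 1 probe of the 9 that passed the test, and it fell. Its log2 signals were 7.27, 7.38 and 7.41 on the IL-17A arrays and 7.62, 7.62 and 7.60 in the controls. Every IL-17A array lay below every control array, and the control arrays spread less (SD 0.014) than the IL-17A arrays (SD 0.073). The log2 fold change was -0.26 ± 0.05 (SE, 95% interval -0.38 to -0.14, limma adjusted p = 0.043). Leaving out any 1 array lowered the number called over all tested probes, from 1818 to between 2 and 983. The call of A_33_P3540143 was narrow, and each of the 6 arrays was needed for it. The adjusted p became 0.071, 0.091 and 0.119 without IL-17A replicates 1, 2 and 3, and 0.117, 0.159 and 0.067 without control replicates 1, 2 and 3, with log2 fold changes of -0.22 to -0.29. A fit that took the slide of the array as a block gave -0.34 with an adjusted p of 0.091.

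The slide bears on all of these values. The 3 controls lay on 1 slide together with IL-17A replicate 1, and the other treated samples lay on another, as inferred from the scans that arrays shared. The block estimate is therefore the difference between IL-17A replicate 1 and the controls on 1 slide. It was 0.13 for A_23_P17706 and 0.03 for A_33_P3224809, which turned the direction of the latter. Over all tested probes, the number called was 1818 without the block and 48 with it. The part of the slide in the differences was not tested beyond this block.

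Because a ratio of a pair of probes on the same array does not depend on a scaling factor of the array, the IL17RA probes were also set against each other within each array. This comparison was chosen after the values had been seen. Signals before normalization between arrays were used for the ratios. The log2 ratio of A_23_P17706 over A_33_P3540143 was 1.37, 1.19 and 1.19 on the IL-17A arrays and 0.87, 0.92 and 0.95 in the controls. The ratios of A_23_P17706 over A_33_P3224809 were -0.52, -0.52 and -0.45 against -0.66, -0.63 and -0.60, and those of A_33_P3224809 over A_33_P3540143 were 1.89, 1.71 and 1.64 against 1.54, 1.55 and 1.55. In all 3 pairs every IL-17A array lay above every control array. The 3 pairs are not independent, since the first log2 ratio is the sum of the others. Its separation therefore followed from theirs. Groups that did not overlap, in either direction, were found for 26.6% of the 5157 pairs of probes of the same gene. An exact two-sided permutation test gave p = 0.1 for each pair, the smallest p that 3 arrays against 3 allow.

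In limma the fold changes of A_23_P17706 and A_33_P3540143 differed by 0.34 ± 0.07 on the log2 scale (SE, unadjusted p = 0.0033, adjusted p = 0.1002 over the 5157 pairs, of which 0.388% were called). The other IL17RA pairs differed by 0.13 and 0.21, with adjusted p of 0.234 and 0.211. Thus the groups were apart in all 3 pairs, which are not independent, but none of the differences passed the test across all pairs. All 3 probes carry the accession of the same IL17RA transcript, and where on that transcript each of them lies was not analysed here.

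**Figure D2:**
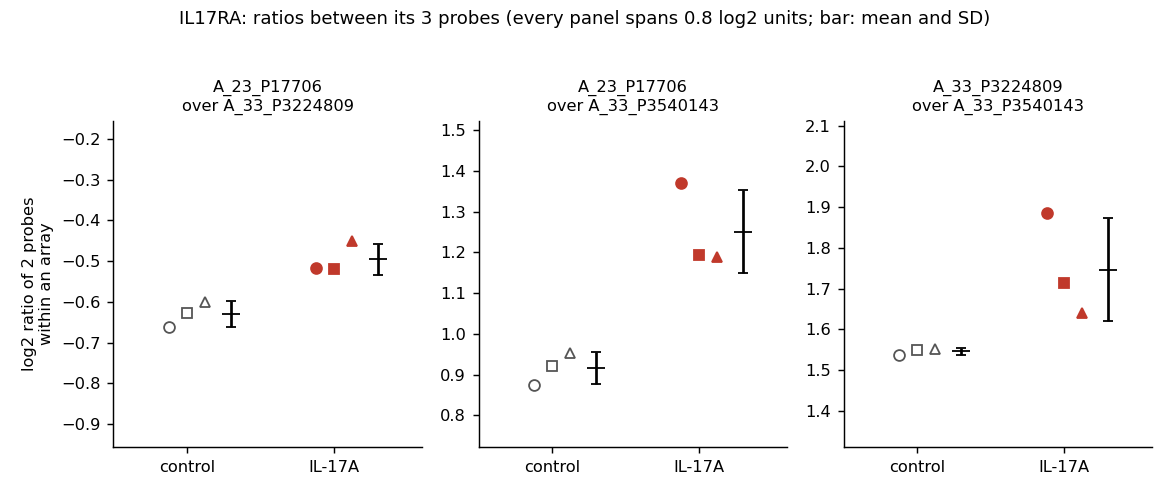
Log2 ratio of 2 IL17RA probes on the same array, before normalization between arrays (vertical axis, each panel spanning 0.8 log2 units), for 3 control and 3 IL-17A arrays, with bars for the mean and SD. In each of the 3 panels the IL-17A arrays lie above the control arrays, with the largest gap for A_23_P17706 over A_33_P3540143 (1.19 to 1.37 against 0.87 to 0.95). That log2 ratio is the sum of the others, so the 3 panels are not independent.

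IL17RC, which joins IL17RA to form the receptor of IL-17A, had the faintest probe. Its log2 signals were 4.27, 4.08 and 4.46 on the IL-17A arrays and 4.31, 4.39 and 4.35 in the controls. The IL-17A arrays spread on both sides of the controls. Its log2 fold change was -0.08 ± 0.10 (SE, 95% interval -0.33 to 0.16, limma adjusted p = 0.601), and without IL-17A replicate 2, the lowest array, it was 0.01. In linear terms the interval runs from 0.794-fold to 1.12-fold, so a change of IL17RC beyond 1.5-fold lies outside it.

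IL17RB, the subunit that binds IL-25, had log2 signals of 7.35, 7.39 and 7.36 on the IL-17A arrays and 7.12, 7.28 and 7.39 in the controls. The control arrays spread more (SD 0.14) than the IL-17A arrays (SD 0.020), and control replicate 3 matched the highest IL-17A array. The log2 fold change was 0.11 ± 0.07 (SE, limma adjusted p = 0.374). It rested in part on single controls, being 0.034 without control replicate 1 and 0.17 without control replicate 3. On the annotation GRCh38.p14, IL17RB overlaps ACTR8, a subunit of a chromatin remodeling complex.

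IL17RD, the modulator, had log2 signals of 5.77, 5.99 and 5.78 on the IL-17A arrays and 5.69, 5.64 and 5.84 in the controls. The groups overlapped, since control replicate 3 lay above 2 of the IL-17A arrays. This gave a log2 fold change of 0.12 ± 0.09 (SE, limma adjusted p = 0.367). Without IL-17A replicate 2, the highest array, it was 0.052, and the slide block gave 0.048.

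IL17RE, the subunit that binds IL-17C, had log2 signals of 5.15, 5.21 and 5.14 on the IL-17A arrays and 5.09, 4.82 and 5.59 in the controls. The controls enclosed the IL-17A arrays, with control replicates 2 and 3 as the lowest and the highest of the 6. Its log2 fold change was 0.00 ± 0.19 (SE, 95% interval -0.48 to 0.48, limma adjusted p = 0.998), the widest interval of the 9 probes. Without control replicate 3 it was 0.21 with an adjusted p of 0.199. With the slide as a block, the interval passed 1.5-fold. IL17RE and IL17RC are neighbours on the annotation GRCh38.p14, with no protein-coding gene between them.

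TRAF3IP2, which encodes Act1, was measured by 2 probes. The brighter, A_33_P3343428, had log2 signals of 6.10, 6.26 and 6.31 on the IL-17A arrays and 6.19, 6.21 and 6.07 in the controls. The groups overlapped, and the log2 fold change was 0.07 ± 0.07 (SE, 95% interval -0.11 to 0.25, limma adjusted p = 0.546). The slide block gave -0.06, which turned the direction.

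The probe A_23_P110879, the one spotted 10 times, had log2 signals of 5.85, 5.56 and 5.66 on the IL-17A arrays and 5.53, 5.41 and 5.35 in the controls. Every IL-17A array lay above every control array after normalization, although IL-17A replicate 2 exceeded control replicate 1 by little. The log2 fold change was 0.26 ± 0.09 (SE, 95% interval 0.03 to 0.48, unadjusted p = 0.031, limma adjusted p = 0.123), which did not pass the test over all probes. At an unadjusted p under 0.05 it was, with IL17RA A_33_P3540143, 1 of 2 among the 9 probes, against 31.3% of all tested probes. The slide block gave 0.42 (95% interval 0.17 to 0.66, adjusted p = 0.119), which moved the upper limit beyond 1.5-fold.

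The 10 spots show how much this Act1 measurement varied between spots of the same array. Before normalization between arrays, the median linear signal of the 10 spots was 58.0, 48.6 and 48.8 in IL-17A replicates 1, 2 and 3 and 51.3, 40.9 and 40.1 in the controls. Control replicate 1 thus lay above IL-17A replicates 2 and 3 on this scale. At all 10 positions the IL-17A mean exceeded the control mean, by 0.19 to 0.41 on the log2 scale with a median of 0.25, but the arrays overlapped at 8 of them. Spots within an array varied with a pooled SD of 0.093, while the array means varied with an SD of 0.14 among IL-17A arrays and 0.19 among controls. After normalization the array means had an SD of 0.15 among IL-17A arrays and 0.094 among controls. The 10 spots share the RNA, labeling and hybridization of their array, so they do not add replicates of the treatment. The comparison by spot was chosen after the values had been seen.

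**Figure D3:**
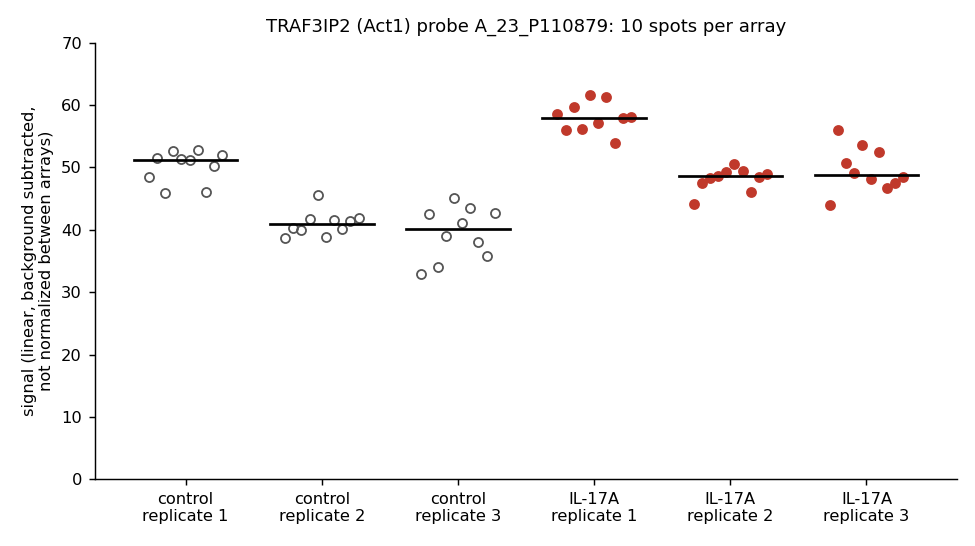
Linear signal of each of the 10 spots of the TRAF3IP2 probe A_23_P110879 on the 6 arrays, background subtracted and not normalized between arrays (vertical axis), with a line at the median of each array. The medians were 51.3, 40.9 and 40.1 on the control arrays and 58.0, 48.6 and 48.8 on the IL-17A arrays, and control replicate 1 lies above IL-17A replicates 2 and 3.

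The 2 Act1 probes differed in their log2 fold change by 0.19 (95% interval -0.13 to 0.51, limma adjusted p = 0.445 over all pairs), which did not pass the test. Before normalization between arrays, the exact permutation test gave p = 0.4. TRAF3IP2 overlaps the antisense gene TRAF3IP2-AS1 on the annotation GRCh38.p14. The TRAF3IP2-AS1 probe had log2 signals of 4.90, 4.83 and 4.78 on the IL-17A arrays and 4.62, 4.72 and 4.59 in the controls. These did not overlap, and the log2 fold change was 0.20 ± 0.05 (SE, limma adjusted p = 0.075), short of the threshold. IL17REL, a receptor-like gene outside the 6, had log2 signals of 4.22, 4.66 and 4.61 against 4.92, 4.89 and 4.64. The groups overlapped slightly, and its log2 fold change of -0.32 ± 0.14 (SE, limma adjusted p = 0.189) did not pass the test. It was -0.18 without IL-17A replicate 1 and -0.60 with the slide block.

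**Figure D4:**
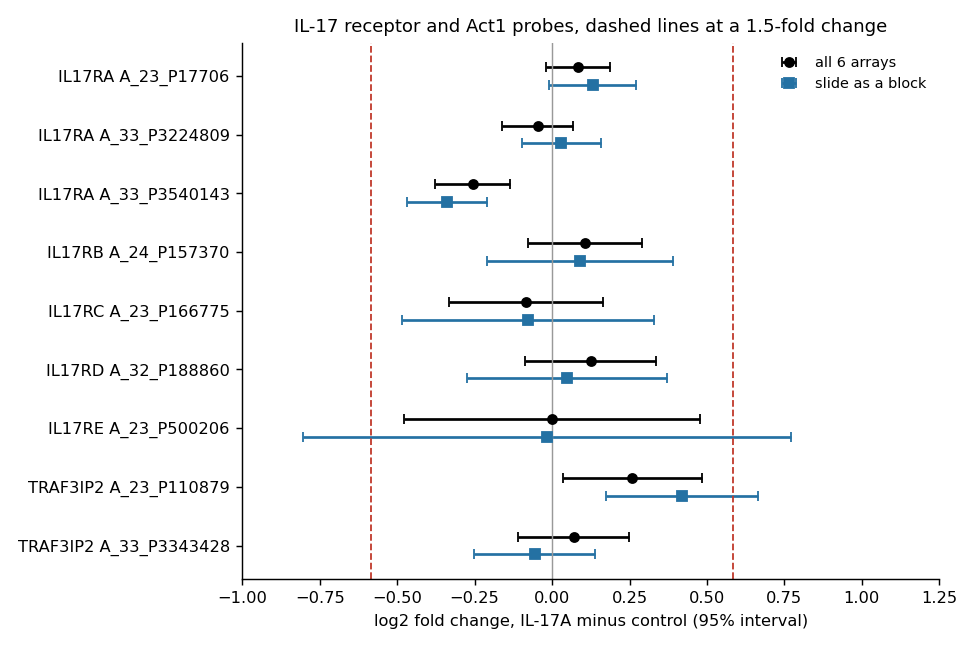
Log2 fold change of the 9 probes, IL-17A minus control, with 95% intervals (horizontal axis), from all 6 arrays (circles) and with the slide as a block (squares), and dashed lines at a 1.5-fold change. All 9 intervals from the 6 arrays lie within the dashed lines, and with the slide as a block 7 of 9 do, the others being IL17RE and TRAF3IP2 A_23_P110879.

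Whether SU-DHL-2 cells carried RNA of the ligands was looked at next, since IL-17 cytokines are mainly made by T cells and epithelial cells. Of 6 ligand genes, IL17A, IL17C and IL17D were detected on all 6 arrays, while IL17B, IL17F and IL25 were detected on none. The IL17A probe was faint, with log2 signals of 4.39, 4.57 and 4.58 on the IL-17A arrays and 4.43, 4.49 and 3.91 in the controls. These overlapped, and the log2 fold change was 0.23 ± 0.17 (SE, limma adjusted p = 0.382), or 0.049 without control replicate 3. IL17C, the ligand of IL17RE, had log2 signals of 7.32, 7.39 and 7.34 on the IL-17A arrays and 7.15, 7.16 and 7.23 in the controls. These did not overlap, and the log2 fold change was 0.17 ± 0.04 (SE, limma adjusted p = 0.063), short of the threshold. IL17D had a log2 fold change of -0.13 ± 0.08 (SE, limma adjusted p = 0.289). None of the 3 measured ligands passed the test, against 7.85% of all tested genes.

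Downstream of Act1, 22 genes were listed: TRAF adaptors, the TAB and TAK1 proteins, the IκB kinases and related kinases, negative regulators such as TNFAIP3 and USP25, and the transcription factors NFKB1, RELA, CEBPB and CEBPD. All 22 were detected on all 6 arrays. Read at the brightest probe of a gene, 1 of 22 passed the test, against 7.85% of the 14747 genes tested in this way. With IL-17A, 12 had a higher mean and 10 a lower one, and the median log2 fold change was 0.01 over the list and 0.00 over all genes.

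The gene that passed was TRAF3, which encodes an adaptor known to restrain IL-17 receptor signaling and noncanonical NF-κB. It rose, with log2 signals of 5.93, 5.91 and 5.87 on the IL-17A arrays and 5.66, 5.62 and 5.71 in the controls. The groups were clearly apart, and the log2 fold change was 0.24 ± 0.04 (SE, limma adjusted p = 0.037). The call needed each array, and without any 1 array the number called over all probes fell too. The adjusted p of TRAF3 was 0.081, 0.091 and 0.121 without IL-17A replicates 1, 2 and 3. It was 0.105, 0.149 and 0.051 without control replicates 1, 2 and 3. The slide block gave 0.26 with an adjusted p of 0.122, normexp background correction gave 0.10 with 0.162, and without normalization between arrays the adjusted p was 0.188.

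For the TRAF proteins that Act1 is known to recruit, which were named after their values had been seen, no probe passed the test. TRAF6, the ubiquitin ligase that links Act1 to NF-κB, had a log2 fold change of 0.12 ± 0.06 (SE, limma adjusted p = 0.261). TRAF5, which takes part in mRNA stabilization, had log2 signals of 10.25, 10.42 and 10.36 on the IL-17A arrays and 9.96, 10.02 and 10.19 in the controls. These did not overlap, with a log2 fold change of 0.28 ± 0.08 (SE, limma adjusted p = 0.077). TRAF2 had a log2 fold change of 0.08 (limma adjusted p = 0.365), or 0.0064 with the slide block. TRAF4, which also binds Act1, had log2 signals of 8.44, 8.35 and 8.30 on the IL-17A arrays and 8.56, 8.48 and 8.52 in the controls. Here the IL-17A arrays lay below the controls, and the log2 fold change was -0.15 ± 0.05 (SE, limma adjusted p = 0.116), or -0.07 with the slide block.

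Of 27 genes that IL-17A is known to induce in epithelial cells and fibroblasts, 14 were not detected at any probe on enough arrays to be tested, among them CXCL8, CCL20, CSF3, IL6 and LCN2. None of the 13 tested genes passed the limma test after adjustment, against 7.85% of all genes, and 4 had an unadjusted p under 0.05, against 31.8%. At the brightest probe, CCL2, CXCL1, STEAP4 and SOCS3 of the 13 were detected on 1 IL-17A array and on 2 or 3 controls. These probes so entered the test mainly through the controls. The other CXCL1 probe was detected on 2 IL-17A arrays and 3 controls. Of the 9 detected on all 6 arrays, a restriction added after the data had been seen, 8 had a lower mean with IL-17A and 1 a higher one, with a median log2 fold change of -0.15, against 0.00 over all genes. The higher one was NFKBIZ, which encodes the nuclear IκBζ, with log2 signals of 5.96, 5.94 and 5.96 on the IL-17A arrays and 5.75, 5.63 and 5.78 in the controls. These were apart by more than their spread, and the log2 fold change was 0.23 ± 0.05 (SE, limma adjusted p = 0.052), at the edge of the threshold. The adjusted p of NFKBIZ was 0.060 to 0.158 without each array in turn and 0.219 without normalization between arrays. After normexp background correction its log2 fold change was 0.079 with an adjusted p of 0.149. The adjusted p was 0.039 to 0.049 with the deposited log2 values, detection on all 6 arrays, a floor or a variance trend. Among the lower genes, the chemokine CXCL5 had a log2 fold change of -0.20 ± 0.05 (SE, limma adjusted p = 0.064) and the collagenase MMP1 one of -0.40 ± 0.12 (SE, limma adjusted p = 0.093). NFKBIZ, CXCL5 and MMP1 were named after their values had been seen.

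**Figure D5:**
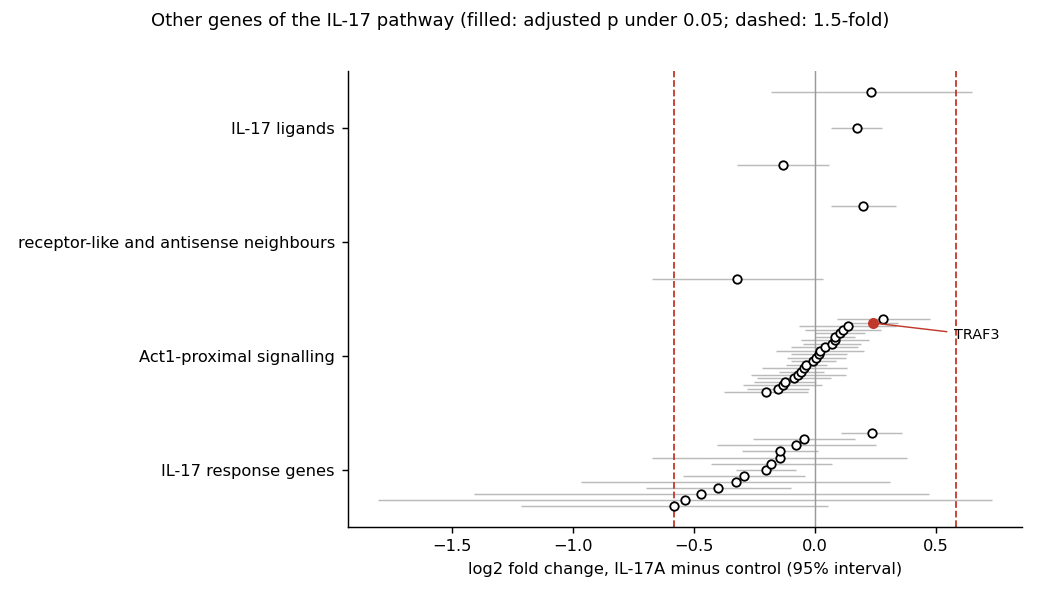
Log2 fold change, IL-17A minus control, with 95% intervals (horizontal axis) for the tested genes of 4 lists at their brightest probe, filled where the adjusted p was under 0.05, with dashed lines at a 1.5-fold change. TRAF3 at 0.24 is the 1 filled point, and of the 13 IL-17 response genes shown, 9 were detected on all 6 arrays, 8 of them left of 0.

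The cells carried the markers of their lineage. All 11 B-cell markers were detected on all 6 arrays. None passed the limma test, against 7.85% of all tested genes, and 4 had an unadjusted p under 0.05, against 31.8%. Their summed linear signal was 78150 to 80310 on the IL-17A arrays and 73020 to 75780 in the controls. CD79A, a B-cell receptor component, had a log2 fold change of -0.17 (limma adjusted p = 0.063). Of 8 markers of T and NK cells, 7 were tested, with KLRD1 not detected, and their summed signal was 212 to 233 on the IL-17A arrays and 220 to 233 in the controls. Of the 7, 4 had a higher and 3 a lower mean with IL-17A. CD3E fell by 0.46 on the log2 scale (limma adjusted p = 0.040), from a control mean of 3.24 to an IL-17A mean of 2.78, while CD2, named after its value had been seen, had a log2 fold change of 0.51 (limma adjusted p = 0.054). The CD3E call was lost without any 1 of the 6 arrays (-0.41 to -0.53, adjusted p = 0.069 to 0.147). The number called over all probes also fell then. The CD3E call was also lost with the slide block (-0.36, adjusted p = 0.163) and after normexp background correction (-0.048, adjusted p = 0.416).

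Of the monocyte markers on the array, CD14 and ITGAM were tested, CSF1R was not detected, and CD68 was detected on 2 controls only. The sums of the tested ones were 89.7 to 94.5 on the IL-17A arrays and 94.7 to 140 in the controls. Of 9 mesenchymal and endothelial markers, 4 were tested and COL1A2, COL3A1, DCN, LUM and KDR were not detected. The sums of the 4 tested ones were 262 to 270 on the IL-17A arrays and 285 to 329 in the controls. With IL-17A, 3 of the 4 had a lower mean and 1 a higher one. None of the 4 passed the limma test, against 7.85% of all tested genes, and 3 had an unadjusted p under 0.05, against 31.8%. The sums of all 3 lists lay far below those of the B-cell markers, and their part in the receptor values was not tested. In RNA of whole cultures, fewer cells that carry a transcript and less of it per cell cannot be told apart. None of 12 housekeeping genes passed the limma test, against 7.85% of all tested genes, and 3 had an unadjusted p under 0.05, against 31.8%. The median log2 fold change of the 12 was -0.02.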

How the data were processed

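SU-DHL-2 cells with IL-17A (3 arrays) and without it (3 arrays) were compared, grouped by sample titles. Per the file headers, the deposited arrays hold a linear intensity per spot from Agilent Feature Extraction 11.0.1.1, background subtracted and not normalized between arrays, with detection flags. The authors also deposited quantile normalized log2 values, which served as an alternative. No spot was saturated, and the number of arrays limits the precision.

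Control and non-uniform spots were left out, values under 1 were raised to 1, and spots were averaged per probe as log2. Arrays were quantile normalized, as in the study's methods. Of 34127 probes, the 23945 detected (positive, significant and well above background) on at least 3 arrays were tested with limma 3.58.1 (R 4.3.3), in a two-sided test with no covariate. Benjamini-Hochberg adjustment covered all tested probes, and a probe was called at an adjusted p under 0.05. RefSeq accessions gave 25771 probes the name of 1 gene (GRCh38.p14). Those symbols selected the probes of the members and of the lists, grouped probes by gene and gave the neighbours. Lists were read at the brightest tested probe of a gene.

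The members and the gene lists were chosen with earlier results of these data known. The text names every member, list genes that were called, members of short lists, and others where it says so. Data were simulated for IL-17A against control over 23907 probes, a small share of them changed by known amounts. There limma recovered 0% of log2 changes of 0.2, 2% of 0.3, 20% of 0.4 and 46% of 0.6, and called 0 unchanged probes. Far fewer probes were changed than were called in the data, which made the adjustment stricter, so these rates need not hold for the data. The replicate numbers did not pair the samples (correlation of deviations -0.087, -0.0022 and -0.047), so no pairing was used. The alternatives covered scaling, background correction, the deposited log2 values, detection filters, a floor, a variance trend, the methods' t-test, replicate and slide blocks, the mean over a gene's probes, and each array left out.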

Additional observations from a re-analysis of the deposited data

How the results depend on the processing

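For the receptor genes and Act1, 164 values were recomputed under 19 alternatives, of which the mean over a gene's probes works on genes and not on single probes. Of the 164, 142 kept their direction and their side of the threshold, 13 kept only the direction and 9 changed sign. The 13 were all of IL17RA A_33_P3540143, with log2 fold changes of -0.22 to -0.34 and adjusted p of 0.051 to 0.221. The number of receptor and Act1 probes called, 1 as reported, was 0 after 75th percentile scaling, without normalization between arrays, without a detection filter, with the methods' t-test, with the slide as a block and within the slide that holds both groups, and 0 to 0 without each array in turn. No setting put any of the 9 probes past 1.5-fold with an unadjusted p under 0.05. Over all tested probes, 1818 were called as reported, 46 without normalization, 3846 with a variance trend, 48 with the slide as a block, 27 within the slide, and 2 to 983 without each array in turn. The 983 were without control replicate 3. Of the pathway genes, 1 was called as reported, 0 without normalization, after normexp, with the slide as a block and within the slide, 2 with the series matrix values, with detection on all 6 arrays, with a floor and with the methods' t-test, 6 with a variance trend, and 0 to 0 without each array in turn.

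With the replicate number as a block, 0 receptor and Act1 probes, 0 pathway genes and 4 probes in all were called. The replicate numbers do not pair the samples.

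Normexp added an offset of 50 to each signal and brought dim probes nearer to 0, to 0.098 for TRAF3IP2 A_23_P110879, 0.043 for IL17RB and 0.040 for IL17RD. Of the values that changed sign, IL17RA A_33_P3224809 was 0.0297 and TRAF3IP2 A_33_P3343428 was -0.0562 with the slide as a block and within the slide. IL17RC was -0.178 to 0.0129 without each array in turn, above 0 without IL-17A replicate 2. IL17RE, at -0.0012 as reported, was 0.0279 after normexp and -0.173 to 0.210 without each array in turn, above 0 where control replicate 3, or replicate 1 or 3 with IL-17A, was left out. For the other changes of call, the cause was not tested. With 3 arrays per group, fewer than 50% of simulated log2 changes of 0.6 were recovered. Far fewer probes were changed in the simulation than were called in the data, which made the adjustment stricter there. The simulated rates therefore do not measure the size of change that could be detected in these data.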

Other observations

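For each gene, the 2 genes with the most similar course over the 6 arrays were sought among 13894 genes detected on all arrays, by the root mean square difference of log2 signals centred on their mean. The brightest IL17RA probe was closest to NUS1 (0.011) and COX8A (0.012), and IL17RB was closest to MSR1 (0.015) and USP9X (0.016). IL17RC was closest to SLC27A5 (0.036) and SRCAP (0.042), IL17RD to OCRL (0.022) and ABHD15 (0.024), and the brighter TRAF3IP2 probe to CHMP7 (0.025) and ZFAT (0.029). Such closeness was common, since 6790 genes lay within 0.1 of IL17RA, 4133 within 0.1 of IL17RB, 3468 of TRAF3IP2, 3006 of IL17RD and 498 of IL17RC. IL17RE stood apart in this respect, with 9 genes within 0.1, of which COL1A1 (0.061) and FBLIM1 (0.072) were the closest. Its signal ranged over 0.77 log2 units across the 6 arrays, against 0.12 for the brightest IL17RA probe, and both ends of that range were control arrays.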
